A study of Mus musculus with 8 samples.

Results

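The genes described here encode chains of collagen IV (Col4a1 to Col4a6), the laminin chains Lama5, Lama1 and Lamb2, and agrin (Agrn), which build the basement membranes of the kidney. They were chosen by symbol: 10 of the 49315 genes in the deposited count tables matched, and all 10 were abundant enough to be tested, with at least 318 counts in every library. Messenger RNA had been sequenced from 8 mouse kidneys, 4 of genotype control and 4 of genotype conditional knockout for Kdm1a, the gene of the histone demethylase LSD1. The labels call the control tissue wild type in the protocol and name no recombinase, strain, age, sex or alleles, so which kidney cells lost Kdm1a is not known here. They number the kidneys within a genotype but do not say that each came from a different animal, so p-values measure the spread between these libraries.

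Collagen IV is a network of triple helices, each wound from 3 chains. Col4a1 and Col4a2 chains form the network of nearly all basement membranes. The chains of Col4a3, Col4a4 and Col4a5 replace it in the mature glomerular basement membrane, the filter between podocytes and capillary endothelium, and variants in these genes cause Alport syndrome. The Col4a6 chain pairs with that of Col4a5 in Bowman's capsule and around some tubules. Laminin heterotrimers form the second network. In the developing glomerulus the Lama1 and Lamb1 chains give way to Lama5 and Lamb2, while Lama1 persists in tubular basement membranes. Agrin is a heparan sulfate proteoglycan that binds laminin.

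Kdm1a itself was lower in the knockouts by a log2 fold change of −0.27 (SE 0.05, edgeR adjusted p 0.0194), at 90.9 to 95.3 CPM, the usual read count scaled to library size, against 110 to 120 CPM in controls. The adjusted p rose above 0.05 without control replicate 1 or 3, or without knockout replicate 1, 2 or 4 (0.0529 to 0.0765). The libraries did not fall into clean groups: on the first principal component over all tested genes, control replicate 2 (9.56) and knockout replicate 3 (9.71) lay between the other controls (−78.7 to −52.4) and the other knockouts (48.3 to 68.4). Xist, transcribed from the inactive X chromosome, was at least 965 CPM in control replicate 2 and knockout replicates 1 and 4, whereas the remaining 5 libraries had at most 6.14 CPM. Summed adrenal markers stood at 2643 CPM in knockout replicate 1, 355 CPM in knockout replicate 4, 145 CPM in control replicate 4 and 13.3 to 16.4 CPM elsewhere. Nephron progenitor markers were present in all 8 libraries, with Six2, which maintains these cells, at 96.9 to 162 CPM in controls and 135 to 219 CPM in knockouts. Six2 did not pass an adjusted p of 0.05 (log2 fold change 0.47, edgeR adjusted p 0.127). Of the 6 markers listed, Cited1 and Meox1 were lower in the knockouts (−1.64 and −1.45, edgeR adjusted p 0.0225 and 0.0132). The podocyte genes Nphs1 and Podxl were detected in every library.

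The 6 collagen IV genes lie in 3 pairs whose members start next to each other and run in opposite directions. Col4a1 and Col4a2 overlap by 22 bases at their starts. Col4a3 and Col4a4 are 71 bases apart, and Col4a5 and Col4a6 are 1308 bases apart. The bases next to the starts are shown because the members of the last 2 pairs gave different results below. They come from the RefSeq promoter table (GRCm38.p6), in which 8 of the 10 members had a window, and each is written 5′ to 3′ on the strand of the gene named. The gap of Col4a3 and Col4a4 is whole, whereas between Col4a5 and Col4a6 only the stretch nearest each start is given, and the bases in the middle were neither shown nor searched.
Col4a3-Col4a4 gap, minus strand as read toward Col4a4 (chr1:82586850-82586920): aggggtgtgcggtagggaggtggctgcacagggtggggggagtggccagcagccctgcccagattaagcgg
Col4a6 upstream, minus strand (chrX:141474077-141474326): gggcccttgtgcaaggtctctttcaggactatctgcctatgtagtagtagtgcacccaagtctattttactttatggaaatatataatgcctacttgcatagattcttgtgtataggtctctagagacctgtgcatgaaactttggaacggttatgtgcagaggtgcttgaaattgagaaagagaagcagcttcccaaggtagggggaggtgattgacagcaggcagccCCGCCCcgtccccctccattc
Col4a5 upstream, plus strand (chrX:141475169-141475384): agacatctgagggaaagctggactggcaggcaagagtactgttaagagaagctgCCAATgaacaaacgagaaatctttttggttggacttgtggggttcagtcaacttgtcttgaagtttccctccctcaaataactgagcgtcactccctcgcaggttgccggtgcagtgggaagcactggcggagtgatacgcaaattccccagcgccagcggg
Capitals mark matches on either strand to 3 motifs searched, the GC box GGGCGG, the CCAAT box CCAAT and the TATA box TATAAA. The 71-base gap of Col4a3 and Col4a4 is 69.0% G or C and held 0 matches. Over the same positions in all 32851 promoter windows, 20.7% held a GC box, 13.3% a CCAAT box and 4.41% a TATA box. The Col4a6 stretch held 1 GC box next to the gene's start, as did 32.7% of windows over the same positions. The Col4a5 stretch held 1 CCAAT box, as did 30.5%.

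Of the 10 members, 4 had an adjusted p under 0.05 (edgeR quasi-likelihood test, Benjamini-Hochberg over 18485 genes), the threshold for a call, and they did not move one way. Col4a3 and Lama1 fell, whereas Col4a6 and Lamb2 rose. Over all genes tested, 14.9% were called, 8.27% lower and 6.61% higher in the knockout. The same 4 members were those whose groups did not overlap, against 18.9% of all genes (9.58% lower, 9.29% higher). The median log2 fold change of the members was −0.22, beside 0.0044 for all genes tested, and 5 of the 10 had an unadjusted p under 0.05, as did 35.1% of all genes.

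**Figure D1:**
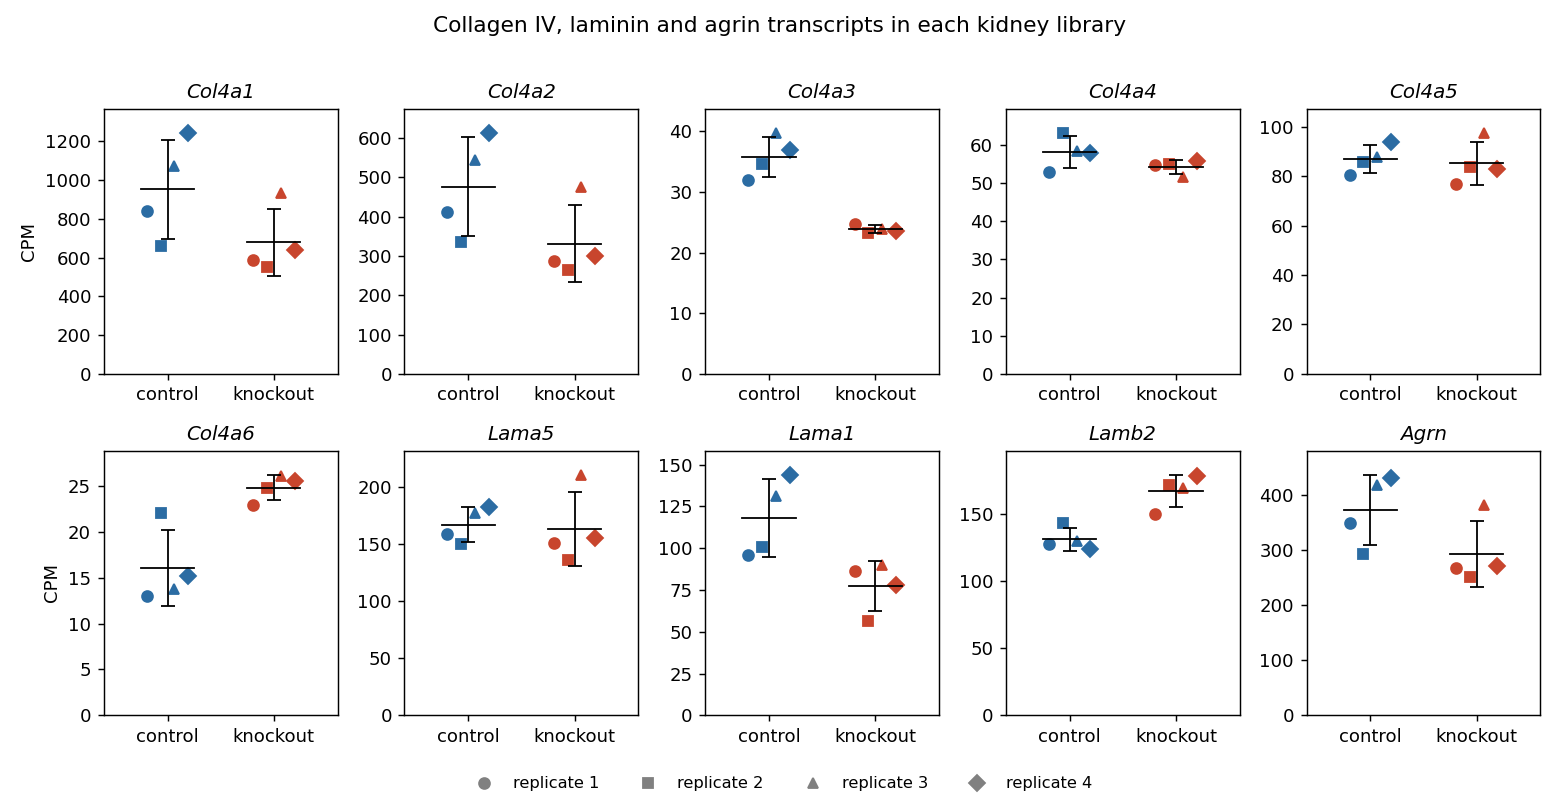
CPM (vertical axes, starting at 0) of each member in 4 control (blue) and 4 knockout (red) libraries, with the mean and SD as black bars and marker shapes for the replicate number. The knockout points of Col4a3 and Lama1 lie below all control points and those of Col4a6 and Lamb2 above, while the groups of the other 6 members overlap.

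In levels per kilobase of exonic length, which allow genes to be compared with each other, Col4a1 was the most abundant member in the controls at 128 ± 34.3 CPM per kilobase (mean ± SD, n = 4, as for all such values). Col4a2 followed at 72.0 ± 19.0 and Agrn at 40.2 ± 6.90 CPM per kilobase. Lamb2 stood at 21.6 ± 1.37 CPM per kilobase. Lama5 (14.7 ± 1.32), Col4a5 (12.9 ± 0.829) and Lama1 (12.4 ± 2.46 CPM per kilobase) came next, and their ranges of mean ± SD overlapped with each other. The lowest were Col4a4 at 5.48 ± 0.389, Col4a3 at 3.59 ± 0.329 and Col4a6 at 2.01 ± 0.518 CPM per kilobase. Col4a1 made up 56.8% of the summed collagen IV level in controls and 55.1% in knockouts. Transcripts of the widespread network therefore dominated in both genotypes, and those of the chains confined to fewer membranes were the minority. Of that sum Col4a5 took 6.0% ± 1.3 in controls and 7.89% ± 1.05 in knockouts, and Col4a6 took 0.972% ± 0.485 and 1.96% ± 0.342.

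Col4a1 (ENSMUSG00000031502, chromosome 8, 11198423 to 11312826, minus strand, GRCm38) stood at 842, 658, 1070 and 1241 CPM in control replicates 1 to 4. In knockout replicates 1 to 4 it stood at 585, 552, 935 and 640 CPM. Knockout replicate 3 lay within the control range, and control replicate 2 was close to the other knockouts. The log2 fold change was −0.49 (SE 0.22, edgeR adjusted p 0.146), not past the threshold. Col4a2 (ENSMUSG00000031503, 11312805 to 11449287, plus strand) read 413, 334, 546 and 613 CPM in controls and 287, 263, 476 and 301 CPM in knockouts. Its log2 fold change was −0.52 (SE 0.23, edgeR adjusted p 0.141). Both genes thus placed the libraries in nearly the same order, and the ratio of Col4a1 to Col4a2 per kilobase ran only from 1.74 to 1.89 over the 8 libraries. Single libraries decided whether the differences were called. Without control replicate 2 the values were −0.63 for Col4a1 (adjusted p 0.0324) and −0.66 for Col4a2 (0.0389), and without knockout replicate 3 that of Col4a2 was −0.73 (0.0381).

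Agrn (ENSMUSG00000041936, chromosome 4, 156165290 to 156197488) followed the same order of libraries. It read 349, 294, 418 and 432 CPM in control replicates 1 to 4 and 267, 252, 383 and 271 CPM in knockout replicates 1 to 4. Knockout replicate 3 again lay among the controls. The log2 fold change was −0.35 (SE 0.16, edgeR adjusted p 0.155). It was called without control replicate 2 (adjusted p 0.0420) or knockout replicate 3 (0.0390).

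Col4a3 (ENSMUSG00000079465, chromosome 1, 82586921 to 82722059, plus strand), a chain of the mature glomerular network, had the smallest adjusted p of the members. It read 32.0, 34.6, 39.7 and 36.9 CPM in control replicates 1 to 4 and 24.7, 23.1, 23.9 and 23.6 CPM in knockout replicates 1 to 4. Every knockout was below every control, and here control replicate 2 and knockout replicate 3 lay with their own genotype. The log2 fold change was −0.59 (SE 0.08, edgeR adjusted p 0.00869), a fall of 33.4%. Leaving out any one of the 8 libraries kept the call (adjusted p 0.00154 to 0.0476). The libraries with high Xist gave 34.6 CPM in the control against 24.7 and 23.6 CPM in the knockouts, and those with low Xist gave 32.0 to 39.7 against 23.1 and 23.9 CPM. Of its exonic bases, 5.65% overlap an antisense transcript, C430014B12Rik, which was under 0.78 CPM in every library.

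Col4a4 (ENSMUSG00000067158, chromosome 1, 82448423 to 82586849, minus strand), the partner of Col4a3 across the 71-base gap and in the triple helix, read 53.0, 63.1, 58.5 and 57.9 CPM in controls. In knockouts it read 54.7, 54.9, 51.7 and 55.7 CPM, a log2 fold change of −0.10 (SE 0.07, edgeR adjusted p 0.311). The ranges overlapped, and no fit run here called it. The ratio of Col4a3 to Col4a4 per kilobase was 0.642, 0.584, 0.722 and 0.678 in control replicates 1 to 4. In knockout replicates 1 to 4 it was 0.481, 0.449, 0.492 and 0.450. The ratio was therefore lower in every knockout than in any control, in contrast to that of Col4a1 to Col4a2. This ratio is given as a description, and the difference between the changes of Col4a3 and Col4a4 was not tested.

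Col4a5 (ENSMUSG00000031274, chromosome X, 141475385 to 141689234), the third chain of the glomerular network, read 80.3, 85.9, 87.6 and 93.9 CPM in controls and 76.7, 83.5, 97.4 and 83.1 CPM in knockouts. The groups overlapped almost fully, with a log2 fold change of −0.03 (SE 0.08, edgeR adjusted p 0.827). Its neighbour Col4a6 (ENSMUSG00000031273, chromosome X, 141165403 to 141474076) read 13.0, 22.1, 13.8 and 15.2 CPM in control replicates 1 to 4 and 22.9, 24.8, 26.1 and 25.5 CPM in knockout replicates 1 to 4. Control replicate 2 was far above the other controls and just under the lowest knockout. The log2 fold change of Col4a6 was 0.63 (SE 0.16, edgeR adjusted p 0.0345), a rise of 55.0%. In libraries with low Xist the controls had 13.0 to 15.2 CPM and the knockouts 24.8 and 26.1 CPM, whereas with high Xist the control had 22.1 and the knockouts 22.9 and 25.5 CPM. With a covariate for Y-linked transcripts it was 0.60 (adjusted p 0.0435). The call was lost in each fit without one of the other 7 libraries (adjusted p 0.0524 to 0.102) and kept without control replicate 2 (0.82, adjusted p 8.91e-04), and the adrenal covariate gave 0.0685. The ratio of Col4a5 to Col4a6 per kilobase was 7.32 to 7.53 in control replicates 1, 3 and 4, 4.62 in control replicate 2 and 3.86 to 4.43 in the knockouts.

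**Figure D2:**
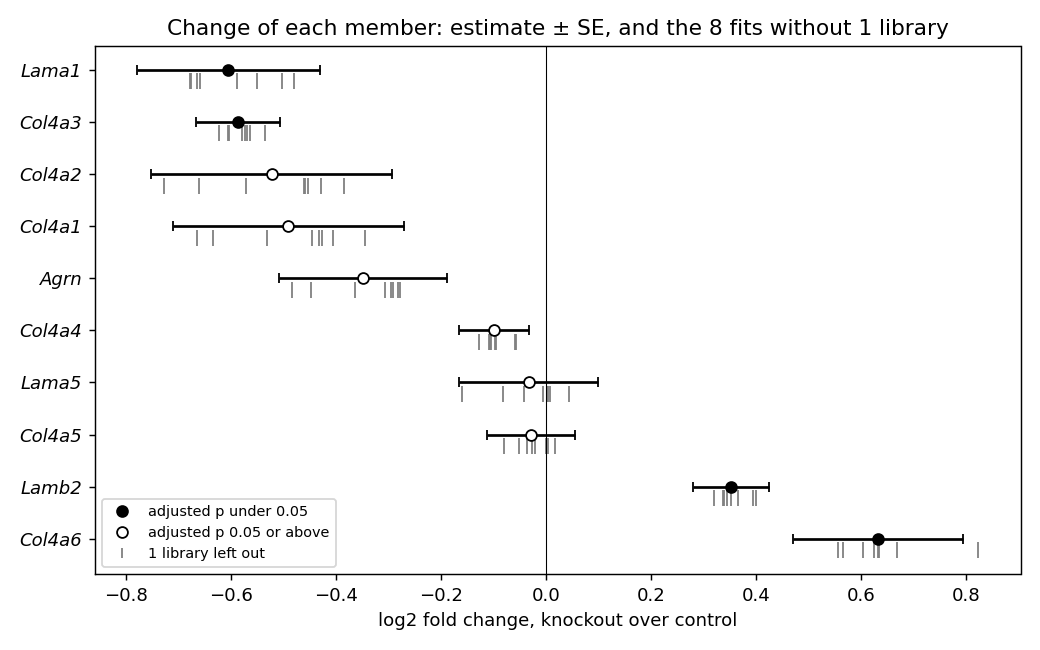
Log2 fold change of each member, knockout over control (horizontal axis), as the estimate and its SE (circles, filled where the adjusted p was under 0.05), with gray ticks for the 8 fits that each left out 1 library. Lama1 and Col4a3 lie lowest at −0.60 and −0.59, and Lamb2 and Col4a6 highest at 0.35 and 0.63. The ticks of Lama5 and Col4a5 fall on both sides of 0.

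Lama1 (ENSMUSG00000032796, chromosome 17, 67697265 to 67822645), the laminin chain of early and of tubular basement membranes, read 95.9, 101, 132 and 144 CPM in control replicates 1 to 4. The knockout values were 86.1, 56.3, 90.0 and 77.9 CPM. All knockouts lay below all controls, with a gap of only 90.0 to 95.9 CPM between the groups. The log2 fold change was −0.60 (SE 0.17, edgeR adjusted p 0.0476), a fall of 34.2%. The call was kept without control replicate 2 (adjusted p 0.0193) or knockout replicate 3 (0.0453) and lost without any one of the other 6 libraries (0.0696 to 0.128). It was also lost with the Y-linked covariate (0.0739) and the adrenal covariate (0.0542). The 9 proximal tubule markers were all called lower, beside 8.27% of all genes. They summed to 496 to 1886 CPM in controls and 79.0 to 356 CPM in knockouts. In the 8 fits that each left out 1 library, from 1 to 9 of these markers were called. Their part in the fall of Lama1 was not tested, and in whole kidneys fewer cells of a type and less RNA per cell cannot be told apart.

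Lama5 (ENSMUSG00000015647, chromosome 2, 180176373 to 180225859), the alpha chain of the mature glomerular laminin, read 159, 150, 177 and 182 CPM in controls. In the knockouts it read 151, 136, 211 and 155 CPM. The spread within the knockouts exceeded the difference between the groups, and the log2 fold change was −0.03 (SE 0.13, edgeR adjusted p 0.876), a sign that turned in 5 of the alternative fits. The ratio of Lama5 to Lama1 per kilobase was 1.39, 1.25, 1.13 and 1.06 in control replicates 1 to 4 and 1.47, 2.02, 1.96 and 1.67 in knockout replicates 1 to 4. It was higher in each knockout than in any control.

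Lamb2 (ENSMUSG00000052911, chromosome 9, 108479736 to 108490530), the mature beta chain, whose loss causes the congenital nephrotic disorder Pierson syndrome, read 128, 143, 130 and 124 CPM in control replicates 1 to 4. In knockout replicates 1 to 4 it read 150, 172, 169 and 179 CPM. All knockouts lay above all controls. The log2 fold change was 0.35 (SE 0.07, edgeR adjusted p 0.0205), a rise of 27.6%. It was called with both covariates (adjusted p 0.0312 for Y-linked and 0.0374 for adrenal transcripts). Its call was lost without control replicate 1, 3 or 4 or knockout replicate 2 or 4 (0.0609 to 0.0724). The early beta chain Lamb1 stood at 517, 478, 598 and 667 CPM in controls and 512, 472, 619 and 533 CPM in knockouts (log2 fold change −0.08, SE 0.12, adjusted p 0.651). The ratio of Lamb2 to Lamb1 per kilobase overlapped between the groups, at 0.304 to 0.489 in controls and 0.446 to 0.593 in knockouts. In all 8 libraries Lamb1 exceeded Lamb2 while Lama5 exceeded Lama1.

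**Figure D3:**
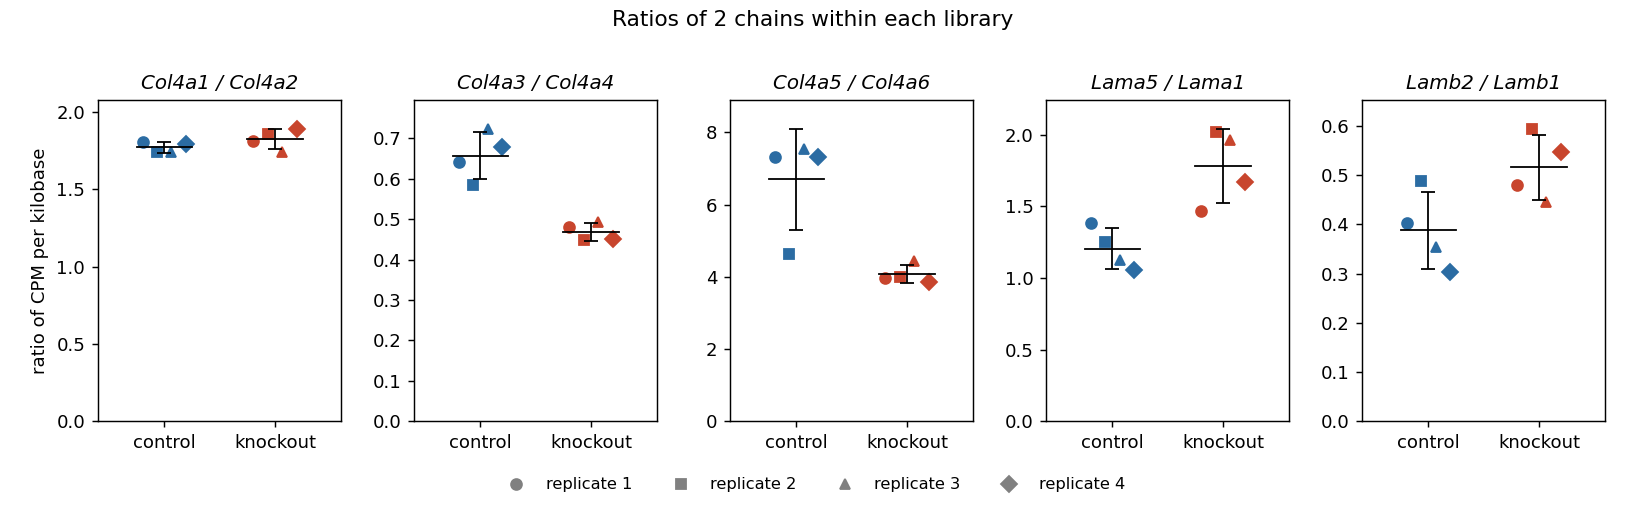
Ratio of the CPM per kilobase of 2 chains within each library (vertical axes, starting at 0), for 4 control (blue) and 4 knockout (red) libraries with mean and SD as black bars. Col4a1 to Col4a2 is near constant, Col4a3 to Col4a4 and Col4a5 to Col4a6 are lower in all knockouts, Lama5 to Lama1 is higher in all knockouts, and Lamb2 to Lamb1 overlaps.

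Other basement membrane genes were counted over 4 lists. Of 46 genes, all tested, 6 were called higher and 5 lower, 23.9% in all against 14.9% of all genes, with a median log2 fold change of 0.0058. Among the 8 other laminin chains, 3 rose and 1 fell. Lama4, an endothelial and mesenchymal alpha chain, rose by 0.42 on the log2 scale (SE 0.12, edgeR adjusted p 0.0470), Lama2 of muscle and stroma by 0.31 (SE 0.09, adjusted p 0.0452) and Lamc3 by 0.73 (SE 0.20, adjusted p 0.0415). Lamc1, the gamma chain shared by most laminins, read 436, 522, 531 and 507 CPM in controls and 603, 523, 595 and 593 CPM in knockouts. Its log2 fold change of 0.21 (SE 0.08, edgeR adjusted p 0.0912) did not pass. Each of the calls of Lama2, Lama4 and Lamc3 was kept in only 1 of the 8 fits that left out 1 library, that without control replicate 2. In the fit without knockout replicate 4 only 0.819% of all genes were called.

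Among 12 linkers and other components, 2 rose and 2 fell, beside 6.61% of all genes called higher and 8.27% called lower. Nid1, the nidogen that joins the laminin and collagen IV networks, read 261, 278, 288 and 273 CPM in controls and 300, 339, 396 and 367 CPM in knockouts. Every knockout was above every control (log2 fold change 0.35, SE 0.09, edgeR adjusted p 0.0308). Its call was lost without control replicate 1, 3 or 4 or knockout replicate 2 or 4 (0.0705 to 0.0888). Nid2, the other nidogen, had a log2 fold change of −0.26 (adjusted p 0.173) and Hspg2, the gene of perlecan, one of 0.20 (adjusted p 0.243), neither past the threshold. Sparc, a collagen-binding glycoprotein, rose by 0.40 (SE 0.11, adjusted p 0.0482). The groups of Sparc overlapped, and of the 8 fits that left out 1 library only that without control replicate 2 kept its call. Tinag, a gene of tubular basement membrane, and the related gene Tinagl1 changed by −2.55 (SE 0.57, adjusted p 0.0259) and −1.21 (SE 0.34, adjusted p 0.0449). Tinag read 15.5, 6.12, 13.8 and 24.8 CPM in controls and 1.82, 0.753, 5.33 and 2.23 CPM in knockouts, so control replicate 2 and knockout replicate 3 again lay nearest each other.

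Of 15 genes for assembly and crosslinking of collagen IV, 1 was called, beside 14.9% of all genes. Pxdn, the peroxidase that forms sulfilimine crosslinks between collagen IV ends, rose by 0.24 (SE 0.07, edgeR adjusted p 0.0487). Its groups overlapped, and of the 8 fits that left out 1 library only that without control replicate 2 kept its call. The median log2 fold change of these 15 genes was 0.05. Of 11 receptor genes, 2 fell, beside 14.9% of all genes called in either direction and 8.27% called lower. EdgeR called 0 of them in 6 of the fits that leave out a library, all but those without control replicate 2 or knockout replicate 3, with 3 to 6 at an unadjusted p under 0.05. Itga1, an integrin chain that binds collagen IV, changed by −1.04 (SE 0.25, adjusted p 0.0312), and Bcam, a receptor of Lama5, by −0.72 (SE 0.18, adjusted p 0.0336). Itga3 and Itgb1, which form the main laminin receptor of podocytes, had log2 fold changes of −0.08 and −0.01 (adjusted p 0.667 and 0.857).

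Markers of the cells that make the glomerular membrane are given beside these values, and their counts stand against the 14.9% of all genes called. Of 13 podocyte markers 3 fell and 1 rose (median log2 fold change −0.46), and their summed level was 1202 to 1703 CPM in controls and 992 to 1355 CPM in knockouts. EdgeR called 0 of the 13 without control replicate 3 or 4 or knockout replicate 1, 2 or 4. In these fits 7 to 8 had an unadjusted p under 0.05. With the adrenal covariate 0 were called. Nphs1, the gene of nephrin, changed by −1.92 (SE 0.46, edgeR adjusted p 0.0300) and Podxl by −1.13 (SE 0.27, adjusted p 0.0300), while Wt1 stood at 0.04 (adjusted p 0.826). Lmx1b, a transcription factor of podocytes known to act on Col4a3 and Col4a4, stood at 0.31 (adjusted p 0.168). Of 10 endothelial markers all had negative estimates, 1 was called (Emcn, −0.77, adjusted p 0.0382) and the median was −0.48. The endothelial sum was 737, 591, 823 and 933 CPM in controls and 537, 412, 697 and 528 CPM in knockouts. It was highest in control replicate 4 and lowest in knockout replicate 2, as for Col4a1. The podocyte, mesangial and mural, and proximal tubule sums were highest and lowest in the same libraries. Those of principal cell, progenitor and adrenal markers were highest in other libraries. Of 6 mesangial and mural markers 1 rose, Gata3 (0.56, adjusted p 0.0364), which collecting duct cells also express. Negative estimates were found for 4 of these 6, 0 of them called, and the list median was −0.22. The groups of Gata3 overlapped, and removing any single library other than control replicate 2 lost its call. The part of these cell types in the changes of the members was not tested.

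**Figure D4:**
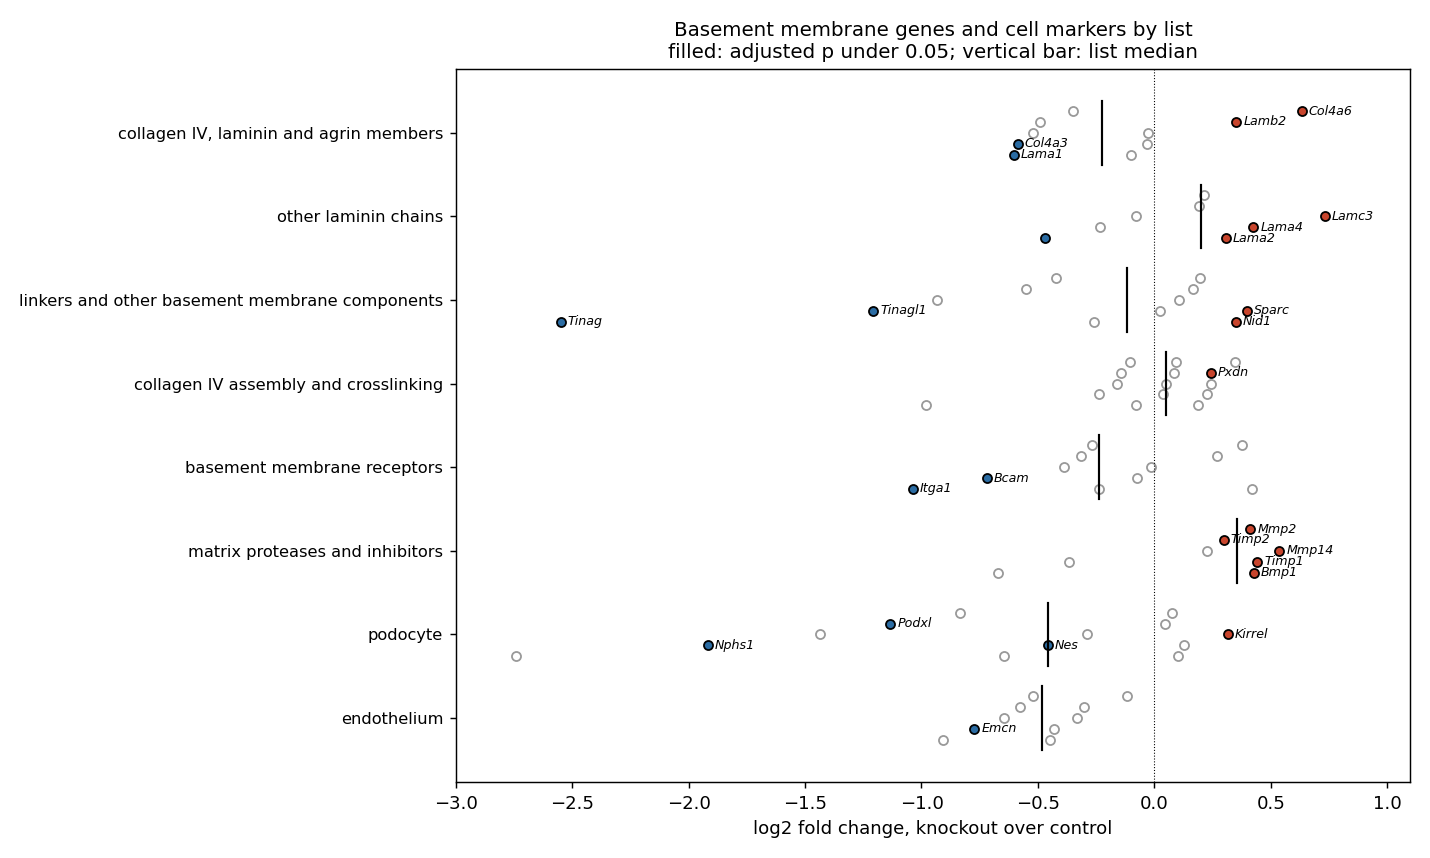
Log2 fold change, knockout over control (horizontal axis), of every tested gene in 8 lists (rows), filled where the adjusted p was under 0.05 (red higher, blue lower) and named for the genes given in the text and a few others, with a vertical bar at each list's median. The members' median is −0.22, those of podocyte and endothelial markers are −0.46 and −0.48, and matrix proteases and their inhibitors lie mostly to the right.

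Genes were also ranked by how alike their log2 CPM was to that of 6 members over the 8 libraries, among 14263 other genes. All genes were read in the same libraries, which differ in genotype, Xist level and cell type markers, so these values describe shared order only. Among the closest to Col4a1 were Col4a2 (Pearson r 0.997) and Lsr (0.993), and closest to Agrn were Col4a2 (0.996), Cdc42ep1 (0.994) and Tbx2 (0.994). After subtraction of the genotype means, Col4a1 and Col4a2 still had an r of 0.995. Col4a3 was most like Fam167a (0.985), D1Ertd622e (0.982) and Mrps5 (0.973), and these fell to 0.782, 0.915 and 0.693 without the genotype means. Col4a4 was not among them. Lama1 was most like Cwh43 (0.989), Rbm47 (0.988) and Pcsk2 (0.987). Lama5 was among others like Plppr1 (0.980) and Kcnd3 (0.967), and Col4a5 was most like Sema5a (0.979), Id4 (0.969) and Plet1os (0.964).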

How the data were processed

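Each of the 8 deposited tables, and a table of the whole series, holds raw counts of reads for every gene as whole numbers, per the file headers, with exon coordinates and gene length. The submitters' processing notes name Trimmomatic 0.36, STAR 2.5.2b, featureCounts of Subread 1.5.2, DESeq2 and the build GRCm38. The handling of strand and of multiply matching reads is not given in the sources used here, and per the labels' protocols libraries were built from oligo-dT selected RNA with a NEBNext Ultra kit. Library totals ran from 19524945 to 28544511 counts, so 1 count stood for 0.0350 to 0.0512 CPM, and 0 values differed between the single files and the table of the whole series. Of the 28 pairs of libraries none agreed within sampling noise (chi-square per degree of freedom at least 8.41).

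With edgeR 4.0.16 (R 4.3.3) filterByExpr kept 18485 genes, TMM scaled the libraries, and glmQLFTest compared the genotypes without covariates. An adjusted p (Benjamini-Hochberg over all genes tested) under 0.05 is a call, and "rose" and "fell" are used for calls. CPM uses TMM library sizes, and CPM per kilobase divides by the deposited gene length. Standard errors come from the fold change and its F statistic. Symbols were found for 48970 IDs. Ratios between genes and likeness (log2 CPM, prior count 2) are descriptions. The code was tested on simulated data.

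The members and lists were chosen with earlier results of these data known. Named are all members, Kdm1a, the partners Lamb1, Lamc1, Nid1, Nid2 and Hspg2, up to 3 called genes with the smallest adjusted p of each list (2 where none was called), and the 3 genes most like each of 6 members. Genes named outside this rule, among them Lama4, Sparc, Timp1, Timp2, Timp3, Itga3, Itgb1, Wt1, Lmx1b and Six2, were chosen after their values were seen. A few genes within the rule are not reported here. The lists cover laminin chains, linkers, collagen IV assembly, receptors, proteases, regulators and 7 cell types. Alternatives were DESeq2 1.42.0, its size factors, limma 3.58.1 (voom with sample weights), other filters, a replicate block, covariates for Y-linked and adrenal transcripts, the whole-series table and each library left out.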

Additional observations from a re-analysis of the deposited data

Results flagged for a closer look

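In 104 groups of 4 values checked (the named genes in each genotype, other than Xist and the genes named for likeness to a member), 12 had a library far from the other 3: its gap to the nearest passed the critical value of Dixon's test. Chance flags about 1 in 20 groups. Among the members only Agrn was so marked, at 383 CPM in knockout replicate 3 against 252 to 271 CPM in the other knockouts. Bcam stood at 410 CPM in the same library against 248 to 271 CPM. Control replicate 2 was the highest control for Pxdn (265 CPM against 226 to 230), Mmp14 (232 against 152 to 165), Sparc (1306 against 919 to 975), Kirrel (95.8 against 76.6 to 79.3) and Gata3 (94.7 against 61.9 to 66.5). Wt1 was lowest in knockout replicate 3, at 168 CPM against 203 to 208 CPM. Lamc1 was lowest in knockout replicate 2, at 523 CPM against 593 to 603, and Pxdn lowest in knockout replicate 1, at 260 CPM against 286 to 288. Star, an adrenal gene, was at 25.5 CPM in control replicate 4 against 6.64 to 8.90 CPM, and at 613 CPM in knockout replicate 1 against 8.06 to 72.6 CPM.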

How the results depend on the processing

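The 4 called members, 2751 called genes and 11 called genes of the other basement membrane lists depended on single libraries: over the 8 fits that each left out 1 library, the counts ran from 1 to 7, from 153 to 7084 and from 0 to 20. The extremes were the fits without knockout replicate 4 and without control replicate 2. Col4a3 was called in all 8. Of the 46 other basement membrane genes edgeR called 0 without control replicate 1, 3 or 4 or knockout replicate 2 or 4, with 17 to 21 at an unadjusted p under 0.05. With the adrenal covariate the counts were 2, 1181 and 2, with limma-voom and sample weights 7, 8302 and 32, and with DESeq2 4, 4506 and 17; without a filter on low counts the third was 7. The replicate block gave 6, 3229 and 12, adding Col4a1 and Col4a2. The deviations of same-numbered libraries had correlations of both signs (−0.11, 0.33, 0.23 and −0.06). The check was thus mixed, and the numbers are not taken to pair the kidneys. The change of Col4a5 was 0.00670 with the adrenal covariate, and with the Y-linked covariate that of Lama5 was 0.012 and that of Wt1 −0.0027, each reversed from a value near 0. Without single libraries Col4a5 ran from −0.080 to 0.018, Lama5 from −0.16 to 0.044, Lamb1 from −0.15 to 0.0019, Itga3 from −0.14 to 0.0055, Itgb1 from −0.020 to 0.0022 and Wt1 from −0.063 to 0.15. The counts called in the lists ran from 0 to 4 for other laminins, from 0 to 7 for linkers, from 0 to 4 for assembly, from 0 to 6 for receptors, from 0 to 7 for proteases and inhibitors, from 0 to 3 for regulators, from 0 to 8 for podocyte and for endothelial markers, from 0 to 3 for mesangial, principal cell and progenitor markers, from 0 to 4 for adrenal markers and from 1 to 9 for proximal tubule markers. With DESeq2 size factors in edgeR the median log2 fold change of all genes was 0.0038, beside 0.0044 with TMM. The cause of these differences was not tested.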

Other observations

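Of 8 genes of matrix proteases and their inhibitors, 5 rose and 0 fell, beside 6.61% of all genes called higher. EdgeR called 0 of the 8 without control replicate 1, 3 or 4 or knockout replicate 2 or 4, with 7 at an unadjusted p under 0.05 in each. Mmp2, a gelatinase that cleaves collagen IV, read 170, 181, 169 and 149 CPM in controls and 192, 236, 233 and 228 CPM in knockouts (log2 fold change 0.41, SE 0.09, edgeR adjusted p 0.0217). Its activator Mmp14 rose by 0.54 (SE 0.13, adjusted p 0.0288) and Bmp1, a procollagen protease, by 0.43 (SE 0.08, adjusted p 0.0189). The inhibitors Timp1 and Timp2 rose by 0.44 and 0.30 (adjusted p 0.0451 and 0.0475), while Timp3 stood at −0.67 (adjusted p 0.0612). Without knockout replicate 4 the adjusted p of Mmp2 was 0.0722 and that of Bmp1 0.0689.

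The counts in the next lists stand beside 14.9% of all genes called. Of 8 regulators of glomerular matrix genes 1 rose, Tgfb2 (0.51, SE 0.12, edgeR adjusted p 0.0264), at 21.0 to 30.3 CPM in controls and 33.5 to 39.1 CPM in knockouts. Of 6 nephron progenitor markers 2 fell, Cited1 (−1.64, adjusted p 0.0225) and Meox1 (−1.45, adjusted p 0.0132), with Six2 at 0.47 (adjusted p 0.127). All 4 that were not called had positive estimates, and the list median was 0.27. Of 6 principal cell markers 1 rose, Hsd11b2 (0.59, adjusted p 0.0459). The other 5 had negative estimates, 0 of them called, and the list median was −0.52. The groups of Hsd11b2 overlapped, and with single libraries removed its call was kept 2 times out of 8. Of 9 adrenal markers 8 were tested and 0 called by edgeR, with 5 at an unadjusted p under 0.05, while DESeq2 called 4 and limma-voom 0. Without knockout replicate 3 edgeR called 4 of them.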
